A study of Arabidopsis thaliana with 18 samples.

Results

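A single RNA sequencing library of Arabidopsis thaliana seedlings that carry a truncated DCL1 under the 35S promoter in the dcl234 triple mutant was compared with the 3 libraries of dcl234 without a construct. These 4 libraries were chosen by their titles from a series of 18. All 4 lack intact DCL2, DCL3 and DCL4 by genotype, are in the Columbia background, and were whole seedlings harvested 11 days after germination under 18 h of light at 22 °C. The labels call the construct both 35S-truncatedDCL1 and 35S-DCL1RDD and do not say which stretch of DCL1 it holds or whether the plants are 1 line. The 35S promoter comes from a plant virus and drives strong expression in most tissues. The other groups compared below are dcl234 with 35S-RTL2 (n = 3), the wild type Col-0 (n = 3) and 35S-RTL1-Myc in Col-0 (n = 2). The remaining groups of the series are the rtl2-1 mutant (n = 3) and 35S-RTL2 in Col-0 (n = 3). They enter the fit and the ranks among all other libraries. Both RTL genes encode proteins related to RNase III. The truncated DCL1 group has no replicate, and nothing in the labels says that the replicates of the other groups came from separate cultures, so their spread may be technical.

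Dicer-like proteins process double-stranded RNA into short regulatory RNAs. DCL1 makes most plant microRNAs, which guide Argonaute proteins to matching messenger RNAs, while DCL2, DCL3 and DCL4 make several classes of small interfering RNA. Seedlings also keep a salicylic acid branch of immunity, in which the hormone made through EDS16 (ICS1) acts through NPR1 to switch on the pathogenesis-related genes PR1, BGL2 (PR2) and PR5.

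The truncated DCL1 library held 34874423 counts, the most of the 18 libraries, whose totals started at 20775728. It correlated with the dcl234 libraries at r = 0.971 to 0.977 on log2 CPM, the counts relative to library size, across rows, against 0.991 to 0.993 among the dcl234 libraries themselves. A row is 1 counted gene or a set of overlapping genes counted together, and a joined row is written with all its names. Markers of green tissue and of root were present. The 19 measured photosynthesis genes summed to 43628 CPM in the truncated DCL1 library and to 34163 to 35372 CPM in dcl234, and the 6 of 12 root markers that passed the filter summed to 86.5 CPM against 66.4 to 77.3 CPM. These root rows did not move alike, with log2 fold changes from -1.09 to 1.51 and a median of -0.01. The library lay above the dcl234 range for 2 of them and below it for 2. Markers of floral organs, which the label does not name, were present too. Their 8 rows, 1 of them joined, summed to 845 CPM against 815 to 962 CPM in dcl234. In whole seedlings, a change in the share of a cell type and a change in RNA per cell cannot be told apart.

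The sequences of 5 microRNA families are shown because their precursors or targets carry results below. They were read from the RefSeq annotation of assembly TAIR10.1, are written 5′ to 3′, and have the seed, bases 2 to 8, in capitals. No 2 of these families share a seed.
miR398c-3p: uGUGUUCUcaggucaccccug
miR397a: uCAUUGAGugcagcguugaug
miR857: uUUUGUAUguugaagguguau
miR408-3p: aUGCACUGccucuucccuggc
miR163: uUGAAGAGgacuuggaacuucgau

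The construct was visible in the row that joins PPa1, MIR838 and DCL1. With the construct it reached 1417 CPM, from 49924 counts, and it stood at 151, 143 and 152 CPM in the 3 dcl234 libraries. All 17 other libraries lay between 131 and 155 CPM. The log2 fold change was 3.25 (SE 0.088, adjusted p = 1.34e-11). This and all later adjusted p-values are from edgeR's quasi-likelihood test, adjusted by the Benjamini-Hochberg method over 21343 rows. Counts from the construct and from the plant's own DCL1 cannot be told apart in this row, nor can those of PPa1 and MIR838. DCL4, the main maker of trans-acting siRNAs, stood at 35.6 CPM against 25.9 to 31.8 CPM and was not called. The row of AT3G43930 and DCL3, the maker of siRNAs for DNA methylation, stood at 1.59 CPM against 2.58 to 3.75 CPM and was called lower at an adjusted p of 0.047. That call was lost under 5 of 10 alternatives, and dcl234 with 35S-RTL2 stood at 1.42 to 2.27 CPM.

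Across all rows, 1205 were called at an adjusted p below 0.05, which is 5.65% of those tested. Of these, 1003 were higher in the truncated DCL1 library (4.7%) and 202 lower (0.946%), and 3322 rows had an unadjusted p below 0.05. The test takes the spread from the other groups and has no replicate check for the lone library. The filter on low counts keeps a row that passes in a single library. Rows that passed through the truncated DCL1 library alone could be called higher but not lower, which adds to the higher side. At least 2-fold changes made up 682 of the higher calls (3.2% of all rows) and 75 of the lower calls (0.351%). Higher calls had a median log2 fold change of 1.47, lower calls one of -0.86, and the median over all rows tested was 0.00. In 638 of the 1003 higher calls the truncated DCL1 library stood above all 17 other libraries, and in 60 of the 202 lower calls it stood below all of them. Over all rows, these positions were taken by 8.51% and 4.72%. The calls were selected by the distance of this same library from dcl234. Its rank among them follows partly from that selection and is a description. Against dcl234 with 35S-RTL2, which shares the triple mutant background, 1130 rows were called higher (5.29%) and 234 lower (1.1%). These comparisons share the truncated DCL1 library. Without each dcl234 replicate in turn, the count of calls was 809 to 939.

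**Figure D1:**
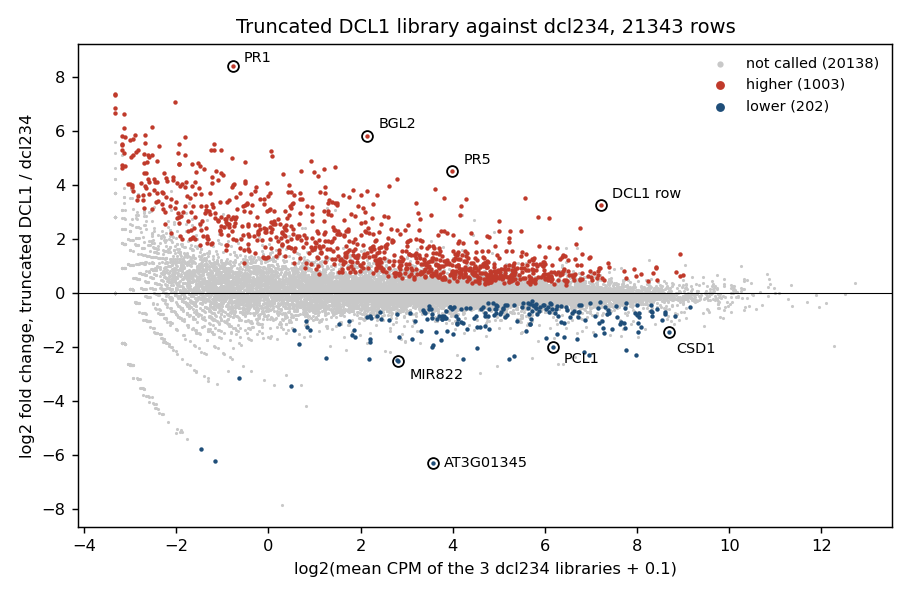
Each point is 1 of 21343 rows, with the log2 of the mean CPM of the 3 dcl234 libraries plus 0.1 on the x axis and the log2 fold change of the truncated DCL1 library against dcl234 on the y axis. The 1003 higher calls (red) outnumber the 202 lower calls (blue), and PR1 has a log2 fold change of 8.41.

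Genes of salicylic acid defence were higher in the truncated DCL1 library. Of 22 listed genes, 19 were called higher and 0 lower, beside 4.7% and 0.946% of all rows, with a median log2 fold change of 2.10. This list, like the others below, was chosen with earlier results of these data known, so its counts are a description. The library stood above the dcl234 range for all 22, a position that 34.9% of all rows took, and above all 17 other libraries for 21 of them, the exception being AZI1. PR1, a secreted antimicrobial protein used as the marker of this response, reached 169 CPM with the construct, against 0.797, 0.223 and 0.439 CPM in dcl234 without it. The highest of the 17 other libraries held 4.97 CPM, so the values did not overlap. Its log2 fold change was 8.41 (SE 0.98, adjusted p = 1.08e-04). BGL2, a beta-1,3-glucanase, stood at 248 CPM against 7.97, 1.56 and 3.48 CPM (log2 fold change 5.83, SE 1.07, adjusted p = 0.00357). PR5, a thaumatin-like protein, stood at 361 CPM against 19.2, 12.2 and 16.0 CPM (log2 fold change 4.51, SE 0.36). The transcript of each of these secreted proteins was far above its range in dcl234, in which no library passed 20 CPM for any of them.

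The enzymes and regulators of the pathway given here were higher too, except NPR1 and EDS5, which were not called. EDS16, which makes isochorismate on the way to salicylic acid, stood at 32.6 CPM against 11.6, 8.63 and 9.47 CPM (log2 fold change 1.72, SE 0.18, adjusted p = 3.98e-05). PBS3, which couples isochorismate to glutamate, stood at 83.5 CPM against 21.3 to 24.9 CPM. The transcription factors CBP60G and SARD1, which switch on EDS16, stood at 19.8 CPM against 1.04 to 2.31 CPM and at 34.3 CPM against 1.42 to 3.23 CPM. None of these ranges overlapped. The lipase-like regulators rose together as well: PAD4 from 7.17 to 8.17 CPM in dcl234 to 39.5 CPM, EDS1 from 23.3 to 30.5 CPM to 54.7 CPM, and SAG101 from 7.03 to 8.56 CPM to 16.7 CPM. DMR6, an enzyme that hydroxylates salicylic acid, stood at 177 CPM against 8.50 to 16.5 CPM (log2 fold change 3.87). For systemic resistance, ALD1 stood at 6.13 CPM against 0.478 to 0.534 CPM and FMO1 at 2.41 CPM against 0 to 0.223 CPM, and both enzymes serve the synthesis of N-hydroxypipecolic acid. ALD1 lost its call without any 1 of the dcl234 replicates, and FMO1 lost it with DESeq2 (adjusted p = 0.195). FMO1 also passed the filter on low counts through the truncated DCL1 library alone, so it could not be called lower. NPR1, the salicylic acid receptor, is counted with AT1G64270. That row stood at 44.7 CPM against 34.5 to 35.3 CPM and was not called (adjusted p = 0.183). The row with EDS5, the exporter of the precursor from the plastid, stood at 95.8 CPM against 90.2 to 92.6 CPM and was not called either.

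**Figure D2:**
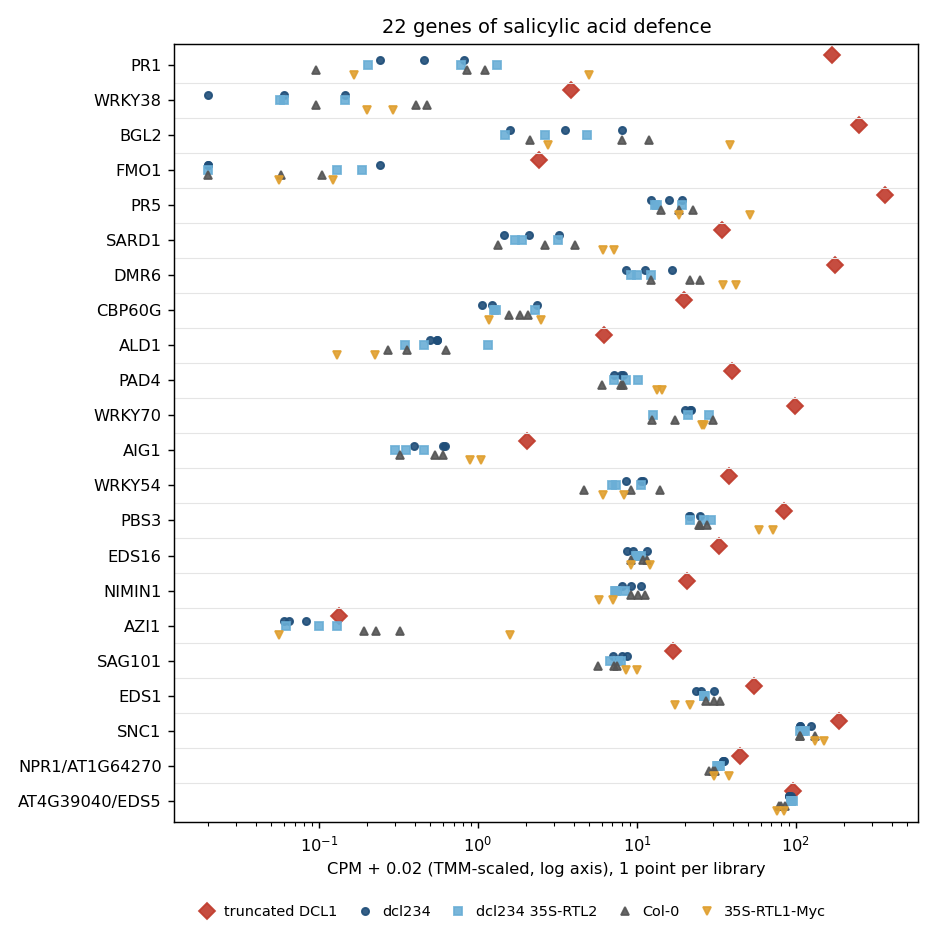
CPM plus 0.02 on a log axis for the 22 genes of salicylic acid defence, with 1 point per library of the truncated DCL1, dcl234, dcl234 35S-RTL2, Col-0 and 35S-RTL1-Myc groups, sorted by log2 fold change. The truncated DCL1 library (red diamonds) is the rightmost point in every row except AZI1.

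Receptor and transcription factor families linked to immunity had higher calls and no lower ones. These families were picked after the values had been seen, so their counts are a description, to be read beside the 4.7% of all rows called higher and 0.946% called lower. Of 38 measured cysteine-rich receptor-like kinases, 25 were called higher and 0 lower, with a median log2 fold change of 1.91. They include CRK23, CRK24 and CRK12, which passed the filter on low counts through the truncated DCL1 library alone. The highest other library held 0.374, 0.136 and 0.125 CPM of them. CRK18 stood at 38.7 CPM against 3.16 to 3.45 CPM. Among 71 TIR-NBS-LRR immune receptors, which detect pathogen effectors inside the cell, 29 were higher and 0 lower (median log2 fold change 0.60), and 26 of 54 receptor-like proteins were higher with 0 lower (median 0.70). AT5G46490 of the TIR-NBS-LRR class stood at 21.4 CPM against 4.27 to 5.46 CPM, and RLP41 at 48.7 CPM against 3.07 to 4.42 CPM. Wall-associated kinases gave 5 of 8 higher (median 1.05), with WAK1 at 203 CPM against 27.0 to 35.3 CPM. Of 61 WRKY transcription factors, 12 were higher and 49 were not called, with a median of 0.23 and 15 factors below the dcl234 range. Among the higher ones were WRKY51 at 8.57 CPM against 0.312 to 0.598 CPM and WRKY70 at 99.1 CPM against 20.1 to 21.7 CPM. Counts of near-identical members of these clustered families could be split between copies by the authors' counting, so single members are uncertain.

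Several of the largest higher calls began from almost no counts in dcl234. AT3G28510, a P-loop nucleoside triphosphatase, stood at 19.7 CPM against 0.279, 0.0890 and 0.0627 CPM, and its call was lost with DESeq2 (adjusted p = 0.160). CRK23 had 199 counts in the truncated DCL1 library and 6 over the 3 dcl234 libraries, a depth-scaled ratio of 75.1 with a 95% exact interval of 33.9 to 207. WRKY38 had 135 counts against 5, a ratio of 61.2 (25.6 to 191). AT5G22540, of unknown function, had 60 counts against 1, and its ratio of 136 has an interval of 23.5 to 5460. These intervals cover counting error alone. BAP2, a membrane-associated inhibitor of cell death, had 110 counts against 5 (49.8, interval 20.7 to 157). CRK23, AT5G22540 and BAP2 passed the filter on low counts through the truncated DCL1 library alone, so they could not be called lower.

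Genes of rapid stress and touch responses gave 5 of 10 higher and 0 lower, beside 4.7% and 0.946% of all rows. WRKY46 stood at 26.2 CPM against 1.56 to 3.03 CPM, the syntaxin SYP122 at 14.1 CPM against 2.14 to 2.35 CPM, and the zinc finger gene STZ at 6.10 CPM against 1.28 to 1.44 CPM. The calcium-binding touch gene TCH3 stood at 140 CPM against 26.6 to 31.5 CPM and was not called (adjusted p = 0.148). In edgeR 0 of 19 jasmonate and wounding genes were called in either direction, with a median log2 fold change of -0.12, while 4 had an unadjusted p below 0.05 in edgeR and DESeq2 called 1. The defensin gene PDF1.3 had the largest difference of that list, with 37 counts against 2 over the 3 dcl234 libraries, a ratio of 41.9 (10.8 to 359, adjusted p = 0.113), and it stood at 1.05 CPM while a 35S-RTL1-Myc library held 5.003 CPM. Whether jasmonate genes differ from salicylic acid genes was not tested.

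The letters TTGAC, the core of the W-box that WRKY factors bind, were counted on both strands of the window from 250 bases before to 50 bases after each RefSeq gene start (TAIR10.1). They were in 50.5% of 18843 single protein-coding genes tested, in 65.6% of the 887 called higher and in 49.4% of the 178 called lower. With the 250 bases before the start alone, a window tried after the longer one had been counted, the shares were 45%, 57.7% and 43.3%. The salicylic acid list was at 12 of 20 in the longer window and 9 of 20 in the shorter, so its share moved from above that of all genes to the same 45%. A match is a description of letters, not of a bound site.

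Circadian clock genes were shifted in both directions. In the plant clock, the morning factors CCA1 and LHY repress evening genes such as TOC1, and LUX (PCL1) with ELF3 and ELF4 represses morning genes at night. Of 19 clock genes, 8 were called higher and 3 lower, beside 4.7% and 0.946% of all rows. The truncated DCL1 library lay above the dcl234 range for 9 of them, where 34.9% of all rows lay, and below it for 10, where 33.3% lay. CCA1 stood at 61.1 CPM against 5.66, 4.85 and 4.45 CPM (log2 fold change 3.62, SE 0.39, adjusted p = 6.32e-05). LHY stood at 26.1 CPM against 2.87, 2.49 and 2.45 CPM (log2 fold change 3.32, SE 0.30). PRR9, a morning repressor, stood at 37.2 CPM against 3.55, 2.67 and 2.73 CPM (log2 fold change 3.64, SE 0.29). RVE8, RVE1, PRR7 and the rows of AT5G64170 and AT3G54500 made up the other higher calls. PRR7, with a log2 fold change of 0.50, lost its call under 5 of 11 alternatives, among them leaving out any 1 of the dcl234 replicates (adjusted p up to 0.117). The lower calls were evening genes. BOA, a relative of PCL1, stood at 5.56 CPM against 22.4, 23.6 and 23.4 CPM (log2 fold change -2.05, SE 0.37, adjusted p = 0.00285), PCL1 at 17.9 CPM against 70.5, 74.6 and 70.3 CPM (-2.0, SE 0.50, adjusted p = 0.0276), and TOC1 at 69.2 CPM against 165, 178 and 181 CPM (-1.34, SE 0.34, adjusted p = 0.0308). No library of dcl234 overlapped the truncated DCL1 value for these genes. Without any 1 of the dcl234 replicates the lower calls fell from 3 to 1, with BOA kept and PCL1 and TOC1 at adjusted p-values up to 0.062 and 0.071. ELF4 stood at 12.4 CPM against 68.3 to 89.0 CPM and FKF1 at 19.3 CPM against 96.4 to 102 CPM, and neither was called (adjusted p = 0.129 and 0.140).

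The labels do not give the time of day at which seedlings were collected, and clock genes follow it, so an effect of the construct and a difference in time of day cannot be told apart. Of the 11 clock genes called, 10 were called the same way in 35S-RTL1-Myc against Col-0. That comparison shares no library with the present one, but both take the spread of each row from the same fit, so their calls are not independent. There CCA1 had a log2 fold change of 3.94, LHY of 5.05, PCL1 of -2.05 and TOC1 of -1.31, all called, while PRR7 had 0.01 and was not. Of all 19 clock genes, 8 were called higher and 10 lower in that comparison, beside 14.8% and 14.7% of all rows. Its 2 libraries differed from each other in the same genes, with ELF4 at 1.12 and 25.8 CPM and GRP7, a clock-controlled RNA-binding protein, at 182 and 2050 CPM. The 22 salicylic acid genes did not move there alike: 6 were called higher and 2 lower, beside 14.8% and 14.7% of all rows. Their median log2 fold change there was 0.42. PR5 and DMR6 were called higher, with log2 fold changes of 0.93 and 0.98. PR1 stood at 0.145 and 4.97 CPM and was not called, and EDS1 was called lower with a log2 fold change of -0.64. Over all calls, 514 of the 1003 higher rows (51.2%) were also called higher in 35S-RTL1-Myc and 51 lower, and 157 of the 202 lower rows (77.7%) were also called lower there and 7 higher. These make up 16.3% of the higher and 5.01% of the lower calls of 35S-RTL1-Myc. The difference between the 2 comparisons was not tested.

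**Figure D3:**
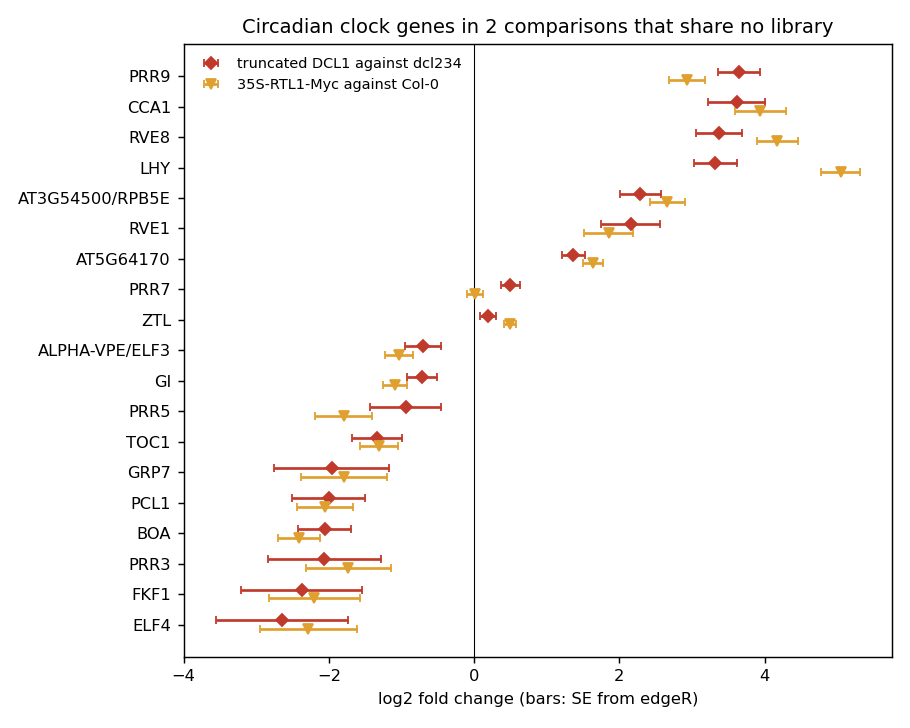
Log2 fold changes (x axis) of 19 clock genes in the truncated DCL1 library against dcl234 (red diamonds) and in 35S-RTL1-Myc against Col-0 (yellow triangles), with SE from edgeR as bars. The points of CCA1, at 3.62 and 3.94, and of PCL1, at -2.0 and -2.05, lie close together, while PRR7 is at 0.50 and 0.01.

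The evening element, AAAATATCT on either strand, was in 3.19% of the 18843 promoters from 250 bases before to 50 after the start, in 3.16% of the higher calls and in 28 of 178 lower calls (15.7%). Of 17 clock genes with a promoter in the table, 7 held it (41.2%). In the 250 bases before the start alone the shares were 2.63%, 2.59%, 10.1% and 35.3%. The 3 clock genes called lower each hold 1 copy in those 250 bases, on chr5:24003638-24003887 for BOA, chr3:17182792-17183041 for PCL1 and chr5:24674713-24674962 for TOC1, all on the plus strand, and these are shown for that reason.
BOA: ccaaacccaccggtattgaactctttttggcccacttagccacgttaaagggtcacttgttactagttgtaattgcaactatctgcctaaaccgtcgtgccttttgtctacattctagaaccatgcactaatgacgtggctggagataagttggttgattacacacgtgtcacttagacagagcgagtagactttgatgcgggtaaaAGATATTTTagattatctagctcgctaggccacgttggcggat
PCL1: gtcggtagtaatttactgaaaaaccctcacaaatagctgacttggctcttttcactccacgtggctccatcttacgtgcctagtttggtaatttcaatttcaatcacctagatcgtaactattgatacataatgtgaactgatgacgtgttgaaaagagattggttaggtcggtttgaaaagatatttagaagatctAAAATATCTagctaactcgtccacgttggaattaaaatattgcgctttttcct
TOC1: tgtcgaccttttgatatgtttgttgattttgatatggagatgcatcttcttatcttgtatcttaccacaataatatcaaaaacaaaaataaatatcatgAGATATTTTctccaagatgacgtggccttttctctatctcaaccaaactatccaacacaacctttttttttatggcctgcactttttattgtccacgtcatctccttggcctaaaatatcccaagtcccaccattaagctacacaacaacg

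MicroRNA targets gave calls in both directions. Of 88 measured targets other than the DCL1 row itself, which is a target of miR162, 7 were called higher and 5 lower, with a median log2 fold change of 0.05. The shares called, 7.95% higher and 5.68% lower, stand above the 4.7% and 0.946% of all rows, and that difference was not tested. Targets of miR398 made up 3 of the 5 lower calls. No target of miR156 (10 measured, SPL factors of phase change), miR165 and miR166 (5, HD-ZIP III factors of leaf polarity), miR319 (5, TCP factors), miR164 (6) or miR169 (7) was called. AGO1, the effector of microRNAs and a target of miR168, stood at 351 CPM against 314 to 356 CPM. The factors that make microRNAs gave 0 calls of 19 in edgeR, 0 in DESeq2, and 0 at an unadjusted p below 0.05. Among them HYL1 stood at 18.6 CPM against 18.9 to 21.8 CPM, SE at 72.0 CPM against 70.1 to 73.9 CPM, and the methyltransferase HEN1 at 21.3 CPM against 17.7 to 22.0 CPM.

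All 3 measured targets of miR398 were lower. CSD1, the cytosolic copper/zinc superoxide dismutase, stood at 153 CPM against 372, 477 and 392 CPM (log2 fold change -1.44, SE 0.21, adjusted p = 7.34e-04). CSD2, its plastid counterpart, stood at 184 CPM against 323, 410 and 380 CPM (-1.02, SE 0.22, adjusted p = 0.0123). CCS, the chaperone that loads copper into both, stood at 50.1 CPM against 83.2, 110 and 85.3 CPM (-0.89, SE 0.23, adjusted p = 0.0361), a call lost without dcl234 replicate 2, without replicate 3 and with the table number as a term. All 3 lay below all 17 other libraries. Against dcl234 with 35S-RTL2, CSD1 and CSD2 were called lower too, and CCS was not (adjusted p = 0.165). The best match to miR398c-3p in CSD1 by letters alone pairs at 17 of 21 bases. It runs across a splice junction in the 5′ UTR (chr1:2827177-2827685, plus strand, ends of the spliced site). The best matches in CSD2 and CCS pair at only 13 and 15 of 21 bases and are not shown. In the CSD1 site, capitals mark bases that pair.
CSD1 site: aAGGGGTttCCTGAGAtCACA

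The microRNAs miR397, miR398, miR408 and miR857 are known to rise under copper shortage. Of their 5 measured precursor rows, 3 were called higher and 0 lower. Among all 67 measured precursor rows without the DCL1 row, 4 were called higher (5.97%) and 2 lower (2.99%). Over all rows the shares were 4.7% and 0.946%. MIR398c is counted with NRT2.7, a nitrate transporter, and the row stood at 67.2 CPM against 16.9, 15.5 and 20.4 CPM (log2 fold change 1.93, SE 0.24, adjusted p = 1.79e-04). MIR397a had 28 counts against 1 over the 3 dcl234 libraries, a ratio of 63.4 (10.5 to 2590). MIR857 had 34 counts against 1, a ratio of 77.0 (12.9 to 3130), and lost its call with DESeq2 (adjusted p = 0.181). The row of AT2G47020 and MIR408 stood at 21.3 CPM against 15.6, 12.5 and 14.7 CPM and was not called (adjusted p = 0.0792), nor was the row that holds MIR398b, at 39.1 CPM against 36.8 to 42.7 CPM. MIR397b and MIR398a did not pass the filter on low counts. The 3 measured targets of miR397, the laccases LAC2, IRX12 and LAC17, the last in a joined row, had 0 calls. Reads over a precursor gene count the primary transcript and do not measure the mature microRNA. In 35S-RTL1-Myc MIR397a stood at 0.905 and 1.40 CPM, MIR857 at 0.326 and 1.02 CPM and the MIR398c row at 59.8 and 78.1 CPM. These rows were called higher there against Col-0, but CSD1 had a log2 fold change of -0.06 and was not called.

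Of 8 measured copper deficiency genes, 2 were higher and 0 lower, beside 4.7% and 0.946% of all rows. FSD1, the iron superoxide dismutase that stands in for the copper enzymes, stood at 411 CPM against 86.1, 26.8 and 60.3 CPM (log2 fold change 2.83, SE 0.72, adjusted p = 0.0302). It also varied in Col-0, from 15.3 to 108 CPM, stood at 107 to 156 CPM in dcl234 with 35S-RTL2, against which it was not called (adjusted p = 0.233), and lost its call without dcl234 replicate 2 or 3. The copper transporter COPT2 stood at 1.33 CPM against 0.319, 0.134 and 0.439 CPM. SPL7, the factor that governs this response, stood at 56.3 CPM against 48.7 to 50.8 CPM and was not called. ARPN, the plantacyanin targeted by miR408, stood at 67.4 CPM against 148, 140 and 146 CPM (-1.10, SE 0.25, adjusted p = 0.0133). The 2 other measured targets of miR408, the laccases LAC12 and LAC13, were not called, with log2 fold changes of 0.95 and 0.37. For ARPN, Col-0 held 74.8 to 85.7 CPM, below the dcl234 libraries. The miR408-3p match in its coding sequence (chr2:827696-827716, minus strand) pairs at 19 of 21 bases, in capitals.
ARPN site: cCaAGGGAAGAGGCAGTGCAT

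**Figure D4:**
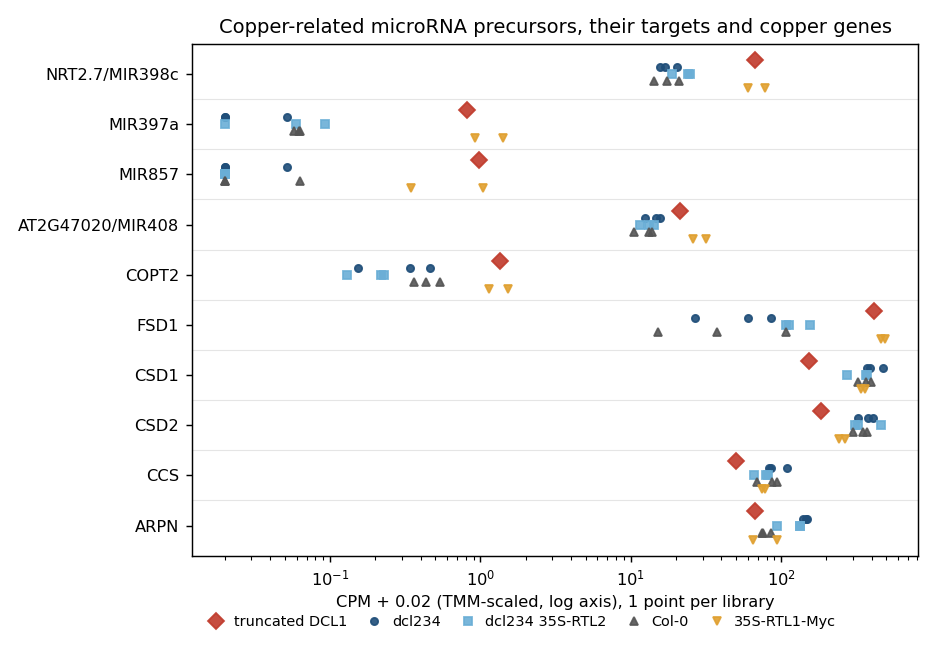
CPM plus 0.02 on a log axis, 1 point per library in 5 groups, for 4 microRNA precursor rows, COPT2, FSD1 and 4 microRNA targets. The truncated DCL1 library (red diamonds) lies right of dcl234 for MIR398c, COPT2 and FSD1 and left of it for CSD1, at 153 CPM, CSD2, CCS and ARPN.

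MIR163 and 2 of its 3 measured targets were higher. The precursor stood at 16.6 CPM against 3.27, 3.25 and 3.14 CPM (log2 fold change 2.37, SE 0.20, adjusted p = 8.05e-06). FAMT, a methyltransferase of farnesoic acid, stood at 12.04 CPM against 1.51, 1.202 and 1.16 CPM (3.22, SE 0.43, adjusted p = 2.98e-04), and PXMT1, a related methyltransferase, at 7.66 CPM against 0.837, 0.712 and 1.16 CPM (3.06, SE 0.62, adjusted p = 0.00685). Neither range overlapped, and both genes stood above all 17 other libraries. The third target, AT1G66690, stood at 0.624 CPM against 0.877 to 1.29 CPM and was not called. In 35S-RTL1-Myc the precursor was similarly high, at 20.2 and 18.0 CPM, while FAMT stood at 1.05 and 2.48 CPM and PXMT1 at 0.145 and 0.715 CPM, neither called. The miR163 matches in the coding sequences of FAMT (chr3:16380055-16380078, plus strand) and PXMT1 (chr1:24874307-24874330, minus strand) pair at 18 and 19 of 24 bases.
FAMT site: AatcgAGTTCCAAGTttTCTTCAA
PXMT1 site: catcgAGTTCCAAGTCCTCTTCAA

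The other target calls described here were small or close to the threshold. AT5G43740, of the immune receptor family targeted by miR472, stood at 16.3 CPM against 9.63 to 12.1 CPM. ARF10, an auxin response factor targeted by miR160, stood at 33.5 CPM against 24.8 to 26.7 CPM. Both lost the call without dcl234 replicate 2 or 3. SNZ, PHO2 and the row of GRF3 and SBE2.1 each lost the call under at least 4 alternatives.

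MIR822 was the precursor that fell most, at 1.22 CPM against 6.06, 6.94 and 7.87 CPM (log2 fold change -2.51, SE 0.52, adjusted p = 0.00845). Yet dcl234 with 35S-RTL2 stood at 1.08 to 1.28 CPM, level with the truncated DCL1 library (log2 difference 0.09, adjusted p = 0.970). Col-0 held 2.47 to 4.70 CPM. Of 6 loci repressed by DNA methylation, 0 were called higher and 2 lower, beside 4.7% and 0.946% of all rows. AT3G01345, of unknown function, stood at 0.142 CPM, from 5 counts, against 2.83, 27.0 and 5.52 CPM, with 0.0365 to 0.876 CPM in dcl234 with 35S-RTL2 and 0.0753 to 0.173 CPM in Col-0. It lost its call with the compared groups alone and with the dcl234 background alone. QQS, a regulator of starch, stood at 1.39 CPM against 3.39, 4.18 and 6.05 CPM, with 0.584 to 1.13 CPM in dcl234 with 35S-RTL2 and 9.62 to 12.2 CPM in Col-0. It lost its call without dcl234 replicate 2 or 3 and with the table number as a term. FWA, SDC, CML41 and AT5G35935 of the same list were not called. The truncated DCL1 library lay above the dcl234 range for 3 of the 6 loci and below it for 2. Their median log2 fold change was 0.082, so the list did not move in 1 direction.

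The remaining lists of small RNA pathways had no calls in edgeR, beside 5.65% of all rows. The Argonautes and siRNA amplification factors gave 0 calls of 20, the genes of DNA methylation 0 of 23, the trans-acting siRNA precursors 0 of 7 and the targets of these siRNAs 0 of 21. At that share, lists this short may hold no call, so the counts do not show that the genes were level. In the same order, log2 fold changes ran from -0.16 to 0.44, -0.69 to 0.74, -0.33 to 0.59 and -0.80 to 1.00. At an unadjusted p below 0.05 in edgeR these lists held 0, 2, 0 and 2 genes, and DESeq2 called 0, 2, 0 and 1. TAS1C, the precursor with the most counts, is joined with AT2G39670 and stood at 126 CPM against 118 to 146 CPM.

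Among further lower calls with the largest change, IAA32, an atypical Aux/IAA protein, stood at 1.22 CPM against 5.98, 6.14 and 8.41 CPM. AT2G23910, a Rossmann-fold protein, stood at 6.78 CPM against 31.1, 39.5 and 41.4 CPM. JMJD5, a jumonji-domain protein whose transcript follows the clock, stood at 25.5 CPM against 97.5, 117 and 130 CPM, a call lost without dcl234 replicate 3. All 3 were also lower in log2 terms in 35S-RTL1-Myc, by -2.24, -1.06 and -0.97, with JMJD5 not called there. Not all of the largest lower calls went that way. AT1G67105, at a log2 fold change of -2.43 here, was called higher in 35S-RTL1-Myc, at 4.90. Its lower call here was lost under 5 of 11 alternatives. AT3G01345 had a log2 fold change of 2.28 in 35S-RTL1-Myc and was not called there.

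Most other lists had few or no calls, beside 4.7% of all rows called higher and 0.946% called lower. At these shares, lists this short may hold no call. LHCB2.1, a light-harvesting protein, was the single call of 19 photosynthesis genes, at 1314 CPM against 459 to 537 CPM, and RD20, a caleosin of drought, the single call of 16 cold, drought and abscisic acid genes, at 241 CPM against 89.9 to 108 CPM. The flavonoid list had 1 lower call of 14 (TT7, 44.0 CPM against 64.6 to 83.4 CPM), and phosphate starvation 1 higher and 1 lower of 10. The calls of LHCB2.1 and TT7 were each lost under 3 of 11 alternatives, and those of the phosphate list under 3 of 10 (the row of AT3G17800 and PAP17) and 6 of 11 (AT5G03545). Flowering time (12 genes), floral organs (8), heat shock (8), iron deficiency (8), sulfur starvation (10), auxin response (6) and the nucleolus (5) had 0 calls in edgeR and 0 in DESeq2, with 1, 0, 2, 5, 1, 0 and 4 genes at an unadjusted p below 0.05. The 9 aliphatic glucosinolate genes also had 0 calls by either tool, 2 at an unadjusted p below 0.05 and a median log2 fold change of 1.04. The library lay above the dcl234 range for 8 of these, for 16 of 19 photosynthesis genes and for 7 of 8 heat shock genes. It lay below that range for 0, 1 and 0 genes of the same lists. All 5 nucleolar genes lay below the range, with a median of -0.41. Over all rows, 34.9% lay above the range and 33.3% below.

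**Figure D5:**
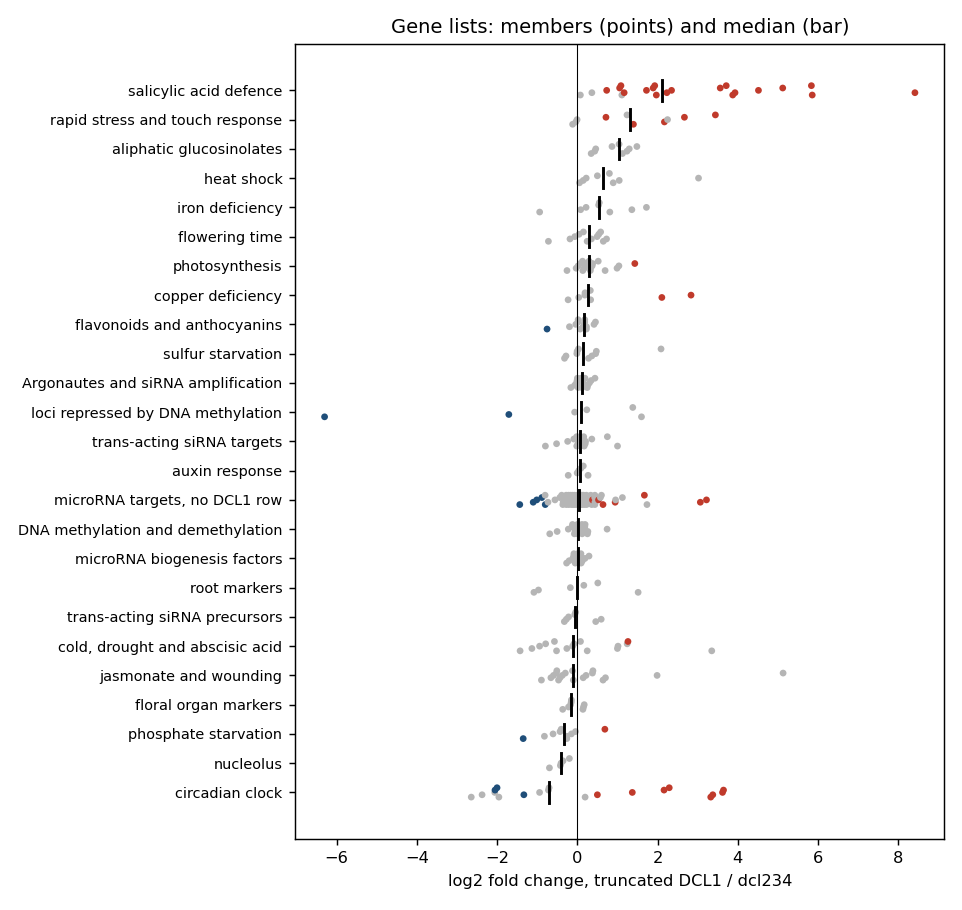
Log2 fold change of the truncated DCL1 library against dcl234 (x axis) for the measured members of each gene list (points) with the list's median (bar). Red points are called higher, blue lower, grey not called. The salicylic acid list has its median at 2.10, and the microRNA targets, without the DCL1 row, at 0.05.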

How the data were processed

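The authors deposited raw read counts per row. TAIR9 is the build named in the submitters' processing notes. No source used here names an aligner, a counter or a strand setting, so antisense partners cannot be told apart. Each of 18 libraries has 31362 rows, 1897 of which join overlapping genes. Symbols came from the RefSeq table of TAIR10.1, which holds 32701 of 33378 genes. Rows were filtered with filterByExpr, which left 21343, scaled by TMM and fitted with edgeR 4.0.16 (quasi-likelihood) in R 4.3.3 as 1 model of 7 group means, with 11 residual degrees of freedom. Calls have a Benjamini-Hochberg adjusted p below 0.05. The fit assigns the lone truncated DCL1 library the spread of the other groups. The filter keeps a row that passes in a single library, because the smallest group has 1 library. CPM are TMM-scaled, and levels are compared within a gene only. DESeq2 1.42.0, other filters, scalings and sample sets were tried. The fit was tested on simulated data. Named genes are the construct and mutated genes, the largest calls (at least 1 CPM) and the smallest adjusted p of each list. The members and lists were chosen with earlier results of these data known. Exact intervals are at 95%. The promoter window that ends at the start was added after the shares in the longer window were seen. The call of 1 microRNA target and 1 further promoter sequence are not reported here.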

Additional observations from a re-analysis of the deposited data

How the results depend on the processing

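The log2 fold change of the DCL1 row stayed between 3.23 and 3.27 and was called in each alternative that could be fitted. Calls against dcl234 numbered 1205 (1003 higher, 202 lower). They became 2942 (1846 higher, 1096 lower) with the compared groups alone and 2160 (657 lower) with the dcl234 background alone. Lower calls were 113 with the number in the deposited tables' names as a batch, 398 with DESeq2 and 344 without rtl2-1 replicate 2, an alternative added after the data were seen. At least 2-fold calls were 757, of which 75 lower. Without each dcl234 replicate the calls were 809 to 939, the higher ones 706 to 799 and the lower ones 96 to 140. Against dcl234 with 35S-RTL2, 1364 calls (234 lower) became 2382 (710 lower) in the dcl234 background alone, and lower calls were 122 with the table number, 415 without rtl2-1 replicate 2, 490 with DESeq2 and 128 to 207 without each replicate. The cause was not tested. Salicylic acid genes called higher ranged from 14, without dcl234 replicate 2, to 20. Of 58 named rows that were called, 41 were called under every alternative, and 0 reversed. Motif shares moved with the promoter window, as given beside them. No paired analysis was possible because the truncated DCL1 group has 1 library.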
